A study of Rattus norvegicus with 29 samples.

Results

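The Rtl1-antisense miRNAs are 5 small RNA genes that lie inside the Rtl1 gene of the imprinted Dlk1-Dio3 region. Every name in the deposited count table with the exact number miR-127, miR-136, miR-431, miR-433 or miR-434 was taken, whichever arm of the hairpin it came from, which gave 9 of the 754 miRNAs in the table. These were both arms of miR-127, miR-136, miR-433 and miR-434, and miR-431. Small RNA was sequenced from tail vein plasma of 29 adult male Sprague-Dawley rats, in which either lateral fluid-percussion injury (TBI) or a sham operation had been done 48 h before. The 10 sham rats were controls operated on without the pressure pulse. Injured rats were divided by video-EEG months later into those with epilepsy (TBI+, n = 9) and those without (TBI-, n = 10). UEF gave 12 rats (4 sham, 4 TBI-, 4 TBI+), Monash 8 (3 sham, 3 TBI-, 2 TBI+) and UCLA 9 (3 sham, 3 TBI-, 3 TBI+). Each rat was 1 library, with a total of 1162307 to 5223469 miRNA counts (median 2713557). The questions were how these miRNAs differed with injury, with later epilepsy and with study site.

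At this locus the protein-coding Rtl1 gene is expressed from the paternal chromosome, and the miRNAs are made from a transcript that runs the opposite way on the maternal chromosome. Because they arise from the opposite strand, their hairpins pair fully with Rtl1 mRNA and can direct its cleavage. The wider region also gives rise to Dlk1, Dio3, Meg3 and a large miRNA cluster, and its miRNAs are abundant in brain, placenta and developing muscle.

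The mature sequences are shown because the 2 arms of miR-434 had different values in these data and because shared seeds would let miRNAs act on the same targets. RefSeq held 7 of the 9, on genome build GRCr8. Each is written from its 5′ end, with the seed, bases 2 to 8, in capitals.
miR-434-3p: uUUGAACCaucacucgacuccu
miR-434-5p: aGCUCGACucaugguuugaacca
miR-127-3p: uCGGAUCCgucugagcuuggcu
miR-136-3p: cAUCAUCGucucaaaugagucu
miR-433-3p: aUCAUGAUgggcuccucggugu
miR-433-5p: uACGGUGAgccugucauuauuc
miR-431: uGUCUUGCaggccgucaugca

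No 2 of these 7 shared a seed, and none of the other table names with a RefSeq sequence (674 names with a sequence in all) had the seed of a member. The longest run of bases in common was 9, between the 2 arms of miR-434, and it was at most 5 between any other 2 members. The sequences were 21 to 23 bases long. All 5 hairpins lay on the plus strand of chromosome 6 within 4968 bases, in the order Mir431, Mir433, Mir127, Mir434 and Mir136, inside the span of Rtl1 and after the end of Meg3.

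Levels are given as CPM, the counts of a miRNA relative to the library total scaled with TMM factors. All 9 members passed the filter on low counts, none was at 0 in any rat, and their counts ran from 9 to 2716 per library. The arm rno-miR-434-3p was the most abundant, with a median of 201 CPM (219 ± 137, mean ± SD, n = 29) and place 128 among the 751 miRNAs tested. It was followed by rno-miR-127-3p at 122 CPM (125 ± 35.7) and rno-miR-433-3p at 100.2 CPM (107 ± 38.6), and these 3 neighbours in the order overlapped within 1 SD. The other 6 formed a lower tier. Their medians were 25.2 CPM for rno-miR-136-3p, 19.1 for rno-miR-434-5p, 17.9 for miR-136-5p, 17.3 for miR-431, 16.3 for miR-127-5p and 12.4 for miR-433-5p. The spread of each of these 6 covered the medians of its neighbours, so their order was not resolved. The 3 abundant members were all 3p arms, and the level of each was above that of its 5p arm in all 29 rats.

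**Figure D1:**
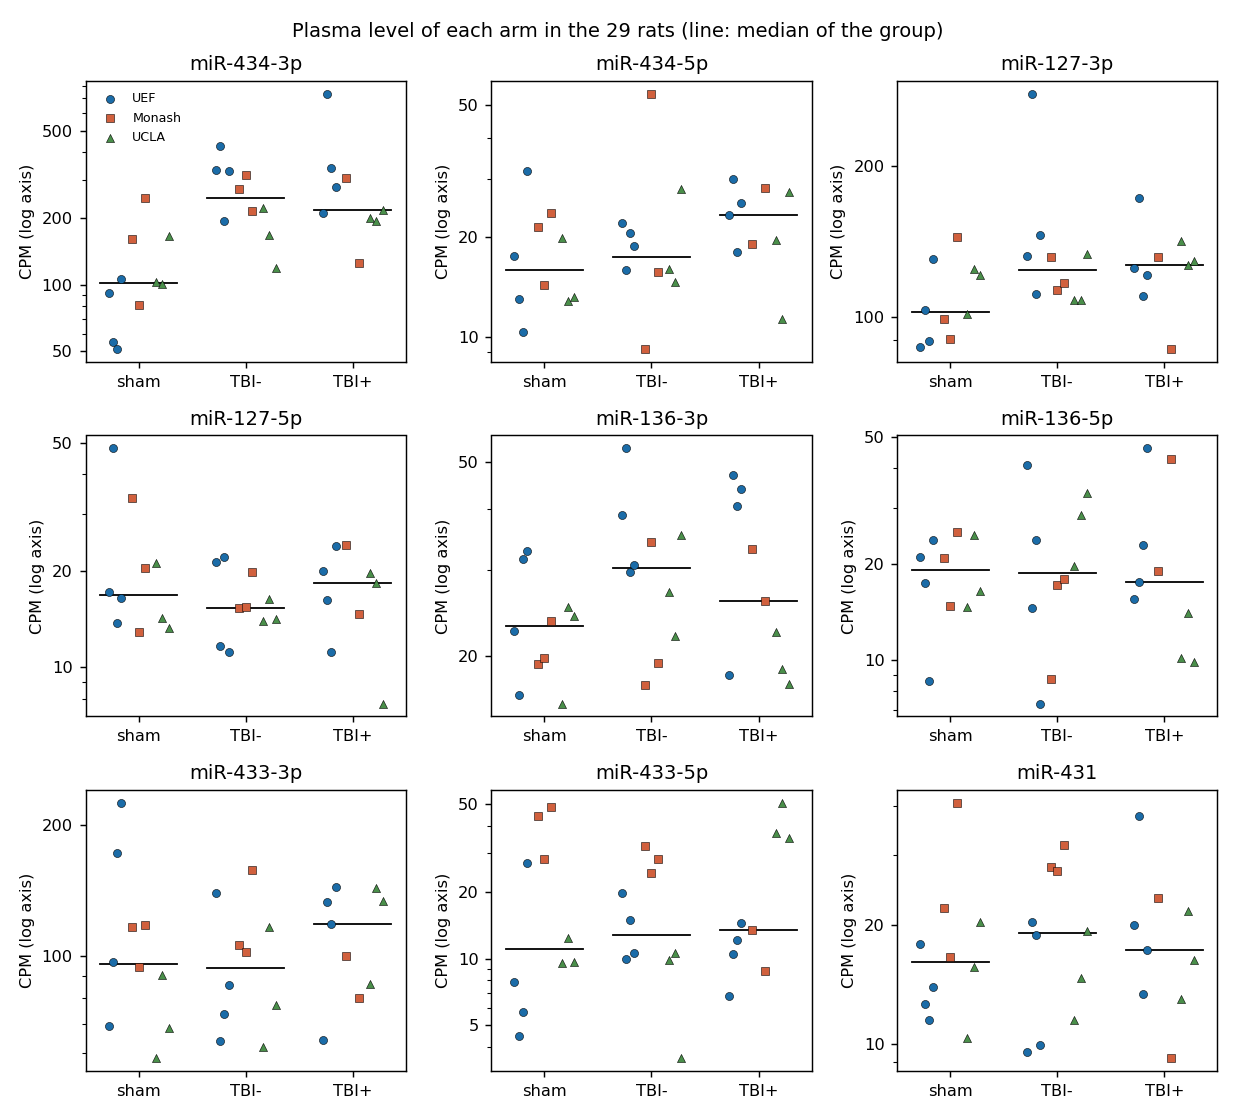
Plasma level of each member in the 29 rats (CPM, log axis), by condition on the horizontal axis; colours and symbols mark the site and the line is the median of the group. For miR-434-3p all 19 TBI rats lie above the sham median of 102 CPM, while the TBI and sham points of the other members overlap throughout.

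Some libraries stood apart from the rest. The UEF sham 3 library had the highest total (5223469) and a TMM factor of 0.333, and miR-122-5p, the main liver miRNA, took 55.1% of its counts. The 9 libraries in columns 15 to 23 of the table (3 Monash sham, 3 Monash TBI- and 3 UCLA TBI+ rats) lay at 0.102 to 0.329 on the first principal component, which held 22.8% of the variance of the other miRNAs. The remaining 20 libraries lay from -0.320 to 0.218, and of these UEF sham 3 and UEF TBI- 2 fell within the range of the 9. This grouping was seen in the data, partly through miR-433-5p, and is not in the labels. It cannot be told apart from site and condition. The main differences are also given without these libraries where the rats left allow it.

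In sham rats miR-434-3p, an arm known as enriched in brain, had 51.1 to 249 CPM (median 102, n = 10). In TBI rats it had 119 to 734 CPM (median 223, n = 19). Every TBI rat was above the sham median and 9 of 19 were above the highest sham rat, so the groups overlapped in part. The mean was 117 ± 60.1 CPM in sham and 273 ± 137 CPM in TBI rats, 2.34 times as high. With site and condition in the model, miR-434-3p was higher after TBI by a log2 fold change of 1.19 (SE 0.271, 95% interval 0.64 to 1.74, edgeR adjusted p = 0.0187), the 5th lowest p of 751. It was the 1 of 9 members called, against 1.20% of all miRNAs tested (9 of 751). The median log2 fold change of the members was 0.20, with 7 higher and 2 lower, and that of all miRNAs tested was 0.03. In plasma a higher level cannot tell more releasing cells from more RNA released per cell. The adjusted p ranged from 0.000624 to 0.939 over 14 alternatives. The call was lost without UEF sham 4 (log2 fold change 1.15, adjusted p = 0.0516) and without the UEF rats (0.57, adjusted p = 0.939). It was also lost with total-count scaling (1.07, adjusted p = 0.125) and when scaled to miR-28-3p, the reference miRNA of the study (1.07, adjusted p = 0.131). With the replicate number as a block the log2 fold change was 1.19 (adjusted p = 0.050004, just above the threshold). It was 1.05 (adjusted p = 0.0361) without UEF sham 3 and 1.64 (adjusted p = 0.0182) without the 9 neighbouring libraries.

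At UEF the groups did not overlap. The 4 sham rats had 91.7, 54.9, 51.1 and 107 CPM of miR-434-3p, and the 8 TBI rats had 195 to 734 CPM (median 330.1). All 8 TBI rats were above all 4 sham rats, and the mean was 4.66 times as high. The log2 fold change at UEF was 2.22 (SE 0.370, 95% interval 1.46 to 2.97, edgeR adjusted p = 0.000266). This was the 1 of 9 members called at UEF, where 3.85% of all miRNAs were called (29 of 754). The call was kept in all 10 alternatives (adjusted p 1.04e-08 to 0.00917) and without each rat in turn (log2 fold change 1.98 to 2.43). Without UEF sham 3 it was 2.08 (adjusted p = 0.00204) and without the 9 neighbouring libraries 2.19 (adjusted p = 0.00246).

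Within Monash the 3 sham rats had 162, 81.3 and 249 CPM of miR-434-3p. The 5 TBI rats had 271, 314, 216, 305 and 126 CPM, of which 3 were above the highest sham rat. The groups overlapped, and the log2 fold change was 0.59 (SE 0.402, edgeR adjusted p = 0.838). It was 0.27 without Monash sham 2 and 1.02 without Monash sham 3. None of the 9 members was called at Monash by edgeR or by DESeq2, and none had an unadjusted p under 0.05. Over all miRNAs edgeR called 0.00% (0 of 754, 57 at an unadjusted p under 0.05) and DESeq2 called 5. At UCLA the 3 sham rats had 103, 100.8 and 166 CPM, and the 6 TBI rats had 119 to 223 CPM (median 198). There 5 of 6 TBI rats were above the highest sham rat, and the log2 fold change was 0.60 (SE 0.391, edgeR adjusted p = 0.535). It was 0.41 (adjusted p = 0.906) without the 9 neighbouring libraries, and at Monash no sham rat was then left. With total-count scaling it was 0.06 at UCLA, where that scaling moved the median of all miRNAs by -0.50. No member was called at UCLA by edgeR or DESeq2, and 0 had an unadjusted edgeR p under 0.05. Over all miRNAs edgeR called 0.265% there (2 of 754). The direction was the same at the 3 sites. In the test of the difference itself, the site by injury interaction, miR-434-3p had an unadjusted p of 0.00356 but did not pass the threshold in edgeR (adjusted p = 0.179, 0.0389 to 0.265 over 8 alternatives). The lowest of these was DESeq2, which called it. With 1 rat left out the adjusted p ran from 0.0403 without Monash sham 2, the only such fit in which edgeR called it, to 0.345 without UEF sham 3. For the interaction 0 of 9 members were called by edgeR and 1 had an unadjusted p under 0.05, against 1.06% of all miRNAs (8 of 754).

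**Figure D2:**
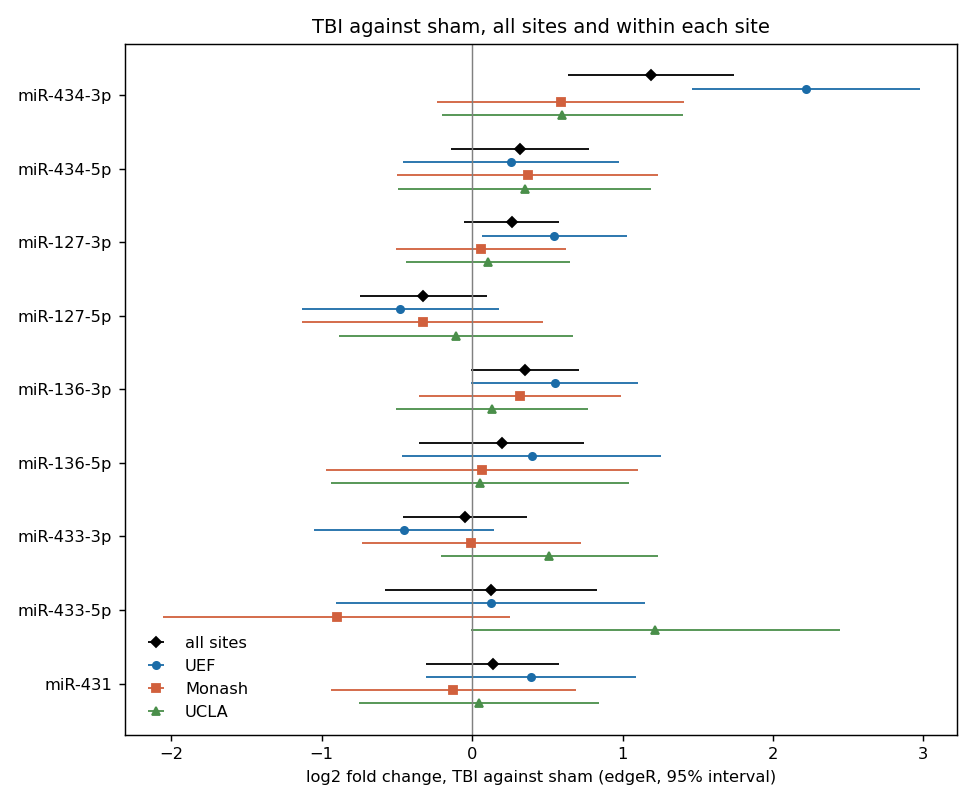
Log2 fold change of each member, TBI against sham, over all sites and within each site; bars are 95% intervals from edgeR and the grey line marks no change. The interval of miR-434-3p lies above 0 over all sites and at UEF (2.22, 1.46 to 2.97) and includes 0 at Monash and UCLA.

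The listed liver, neuron and red cell miRNAs were set beside miR-434-3p. Over all miRNAs 1.20% were called over all sites (9 of 751), 3.85% at UEF (29 of 754), 0.00% at Monash and 0.265% at UCLA. All 4 liver miRNAs (miR-122 and miR-802, both arms) were lower after TBI over all sites and at UEF, and edgeR called 2 and 3 of them. Their summed level, most of it miR-122-5p, had a median of 402801 CPM in UEF sham and 50903 CPM in UEF TBI rats. Its medians were 122478 and 65563 CPM at Monash and 16101 and 16536 CPM at UCLA, in the same order. The highest sum, 1654460 CPM in UEF sham 3, exceeds the CPM of a whole library because of the TMM factor. In the 4 UEF sham rats miR-122-5p took 28.1% to 55.1% of all counts, and in the 8 UEF TBI rats 1.58% to 22.6%. Of 18 neuron miRNAs 15 were higher after TBI over all sites and 2 were called (miR-129-5p and miR-128-3p), and 3 were called at UEF. Their sum, most of it miR-128-3p, had medians of 3782 CPM in UEF sham and 8188 CPM in UEF TBI rats, 5136 and 7251 CPM at Monash, and 6723 and 12989.6 CPM at UCLA. By fitted log2 fold change all 6 red cell miRNAs were higher after TBI over all sites, at UEF and at UCLA, and all 6 were lower at Monash. Of these edgeR called only miR-486, at UEF. Their sum, with miR-16-5p the most abundant, had medians of 184965 CPM in UEF sham and 291084 CPM in UEF TBI rats, 215139 and 237252 CPM at Monash, and 240742 and 434756 CPM at UCLA. No liver, neuron or red cell miRNA was called by edgeR at Monash or UCLA. No listed miRNA was at 0 in all rats. With the ratio of miR-451 to miR-23a-3p, a measure of red cell RNA, as a further term, the miR-434-3p log2 fold change was 1.31 (edgeR adjusted p = 0.0399). The part of the liver, neuron and red cell miRNAs in the miR-434-3p difference was not tested.

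Injured rats with and without later epilepsy overlapped in miR-434-3p. TBI- rats had 119 to 425 CPM (median 247, n = 10) and TBI+ rats 126 to 734 CPM (median 218, n = 9). The log2 fold change of TBI+ against TBI- was 0.18 (SE 0.295, 95% interval -0.42 to 0.78, edgeR adjusted p = 0.998). Its sign rested on 1 rat, since it was -0.10 (adjusted p = 0.995) without UEF TBI+ 2, the rat with 734 CPM. Among the 9 members 0 were called by edgeR and 0 by DESeq2, and 0 had an unadjusted p under 0.05. Over all miRNAs 0.00% were called by edgeR (0 of 751, 18 at an unadjusted p under 0.05) and 0 by DESeq2. The largest difference among members was 0.52 for miR-433-5p, whose 3 highest TBI+ rats, at 35.1 to 50.8 CPM, were the 3 UCLA TBI+ libraries in neighbouring columns. Without the 9 neighbouring libraries it was -0.18, and that of miR-434-3p was 0.58 (adjusted p = 0.995 for both).

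Each outcome group was also set beside the same sham rats, so these comparisons share their controls. The miR-434-3p log2 fold change was 1.10 in TBI- (SE 0.295, edgeR adjusted p = 0.145) and 1.28 in TBI+ rats (SE 0.307, edgeR adjusted p = 0.0435). In TBI- against sham edgeR called 0 of 9 members, with 1 at an unadjusted p under 0.05, against 0.133% of all miRNAs (1 of 751). DESeq2 called 10 miRNAs there, of which 1 was a member, miR-434-3p (adjusted p = 0.0195). The edgeR call was also made without UEF TBI+ 2 (log2 fold change 1.14, adjusted p = 0.0448). In TBI+ against sham 1 of 9 members was called, against 0.533% of all miRNAs (4 of 751). The TBI+ call was close to the threshold. It was kept in 8 of 14 alternatives (adjusted p 0.00265 to 0.971) and in 11 of 29 fits with 1 rat left out. It was lost without UEF sham 1, 2, 3 or 4, UEF TBI- 3, UEF TBI+ 2, 3 or 4, Monash sham 1, Monash TBI- 1 or 2, Monash TBI+ 1, UCLA sham 1 or 2, UCLA TBI- 1 or 2, and UCLA TBI+ 1 or 3. The adjusted p then lay between 0.0505 and 0.123 and the log2 fold change between 1.04 and 1.31. Without the 9 neighbouring libraries the log2 fold change was 1.93 in TBI+ (adjusted p = 0.0454) and 1.35 in TBI- rats (adjusted p = 0.119). All 9 TBI+ and all 10 TBI- rats were above the sham median.

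The opposite arm, miR-434-5p, did not separate sham from TBI. It had 10.3 to 31.6 CPM in sham (median 15.9) and 9.17 to 54.2 CPM in TBI rats (median 19.6), and 1 of 19 TBI rats was above the highest sham rat. Its log2 fold change was 0.32 (SE 0.224, edgeR adjusted p = 0.660), and it was 0.17 without Monash TBI- 2. Of the 19 TBI rats 15 were above the sham median. In the 4 UEF sham rats it had 17.5, 13.0, 10.3 and 31.6 CPM and in the 8 UEF TBI rats 15.96 to 29.998 CPM. All 8 were above the UEF sham median and none was above the highest sham rat, UEF sham 4.

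The arms were therefore set against each other within each library, as the log2 ratio of 3p to 5p counts with 1 added to each, which needs no scaling between rats. For miR-434 the ratio was 1.74 to 3.62 in sham (median 2.42) and 2.07 to 4.82 in TBI rats (median 3.75), and 10 of 19 TBI rats were above the highest sham rat. The mean was 2.60 ± 0.588 in sham and 3.59 ± 0.790 in TBI rats, a difference of 0.99 (two-sided permutation p = 0.00211, Benjamini-Hochberg adjusted p = 0.00844 over the 4 ratios). By site the difference was 1.82 (UEF), 0.54 (Monash) and 0.32 (UCLA). Among UEF rats the lowest TBI rat (3.16) was above the highest sham rat (2.37). It kept its side of the threshold without each rat in turn (0.90 to 1.10, adjusted p 0.00268 to 0.0198). Without the 9 neighbouring libraries it was 1.13 (permutation p = 0.00647, adjusted p = 0.0259), and at UCLA 0.14. The difference over all sites is one of plain group means, without a term for site. It was not tested without the UEF rats, and a difference between sites in this ratio was not tested.

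The difference did not pass the threshold for the other 3 hairpins. For miR-127 the ratio was 2.46 ± 0.677 in sham and 2.98 ± 0.589 in TBI rats, a difference of 0.52 (permutation p = 0.0399, adjusted p = 0.0798), with 6 of 19 TBI rats above the highest sham rat. It passed the threshold only without UCLA sham 3 (0.60, adjusted p = 0.0447). For miR-136 the difference was 0.27 (permutation p = 0.318, adjusted p = 0.425), and the ratio ran from -0.71 to 2.03 (median 0.40), with the 3p arm higher in 22 of 29 rats. For miR-433 the difference was -0.08 (permutation p = 0.819, adjusted p = 0.819), with values of -0.80 (UEF), 0.98 (Monash) and -0.23 (UCLA) by site, and it turned to 0.14 without UEF sham 3. All 3 Monash sham rats are among the 9 neighbouring libraries, so the Monash value could not be given without these. Without them the UCLA value was 0.72 and the difference over all sites -0.24 (adjusted p = 0.601).

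**Figure D3:**
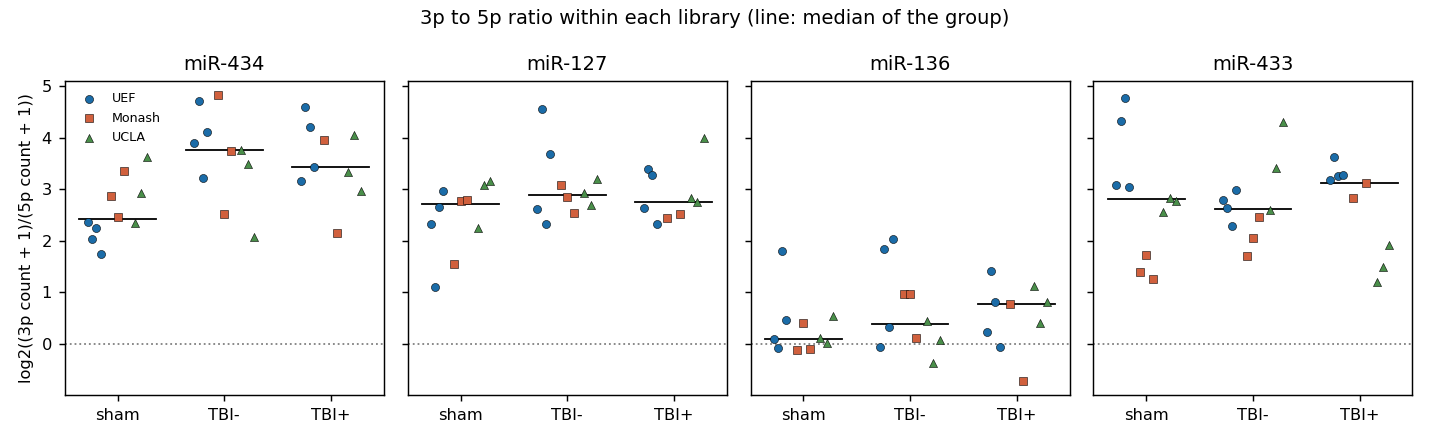
Log2 ratio of 3p to 5p counts (1 added to each) in each of the 29 libraries for the 4 hairpins with both arms in the table, by condition; colours and symbols mark the site, lines are group medians and the dotted line marks equal arms. The miR-434 ratio has a median of 2.42 in sham and 3.75 in TBI rats, and the miR-136 ratio runs from -0.71 to 2.03 over the 29 rats.

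miR-127-3p, the arm known for silencing Rtl1 in the placenta, had 87.1 to 145 CPM in sham (median 102) and 86.3 to 279 CPM in TBI rats (median 126.9). Of 19 TBI rats 18 were above the sham median but only 3 above the highest sham rat. Its log2 fold change was 0.26 (SE 0.154, edgeR adjusted p = 0.592). At UEF it was 0.55 with an unadjusted p of 0.0277 (adjusted p = 0.226), and all 8 TBI rats were above the UEF sham median. The 5p arm, miR-127-5p, had 12.9 to 48.0 CPM in sham and 7.71 to 24.0 CPM in TBI rats, with a log2 fold change of -0.32 (adjusted p = 0.637). Without UEF sham 2, its highest library, this was -0.08.

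miR-136-3p had 15.99 to 32.9 CPM in sham (median 23.03) and 17.5 to 53.2 CPM in TBI rats (median 29.8). Of 19 TBI rats 8 were above the highest sham rat, and 5 of these were UEF rats. The log2 fold change was 0.35 (SE 0.176, 95% interval -0.01 to 0.71, edgeR adjusted p = 0.471). For miR-136-5p it was 0.20 (adjusted p = 0.878), and its levels of 8.62 to 25.2 CPM in sham lay within the 7.33 to 46.1 CPM of TBI rats.

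miR-431, known from work on muscle regeneration and axon growth, had 10.4 to 40.7 CPM in sham (median 16.2) and 9.22 to 37.6 CPM in TBI rats (median 18.9). Its log2 fold change was 0.14 (adjusted p = 0.893), and it was -0.08 without the UEF rats. miR-433-3p had 58.3 to 225 CPM in sham (median 96.0) and 61.9 to 157 CPM in TBI rats (median 102), and no TBI rat was above the highest sham rat. Its log2 fold change was -0.05 (adjusted p = 0.961) and took the opposite sign with total-count scaling (0.04). By site it was -0.45 (UEF, edgeR adjusted p = 0.516), -0.01 (Monash, adjusted p = 0.999) and 0.51 (UCLA, adjusted p = 0.558). For miR-433-5p it was 0.12 (adjusted p = 0.940), an average of different values by site: 0.12 (UEF, adjusted p = 0.959), -0.90 (Monash, adjusted p = 0.838) and 1.22 (UCLA, adjusted p = 0.434). It was -0.37 without the UCLA rats and 0.53 without the Monash rats. The site by injury interaction did not pass (unadjusted p = 0.0502, adjusted p = 0.355). All 3 Monash sham and all 3 UCLA TBI+ rats are among the 9 neighbouring libraries, and without these the UCLA value was -0.45 (adjusted p = 0.906).

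The site comparisons gave 1 call among the members. For UEF against Monash 1 of 9 members was called, miR-433-5p, against 9.99% of all miRNAs (75 of 751). There 3 members had an unadjusted edgeR p under 0.05. For UEF against UCLA 0 of 9 were called by edgeR and 0 by DESeq2, with 1 at an unadjusted edgeR p under 0.05. Over all miRNAs edgeR called 9.32% (70 of 751). For Monash against UCLA the counts were 0 of 9 by edgeR and 0 by DESeq2, with 1 at an unadjusted edgeR p under 0.05. Over all miRNAs edgeR called 5.46% (41 of 751). In the test of the 3 sites together edgeR called 0 of 9, with 3 at an unadjusted p under 0.05, against 14.8% of all miRNAs (111 of 751). DESeq2 called 1 of 9 there, and its share over all miRNAs is not given here. For miR-434-3p the site differences were -0.01 for UEF against Monash (adjusted p = 0.984), 0.43 for UEF against UCLA (adjusted p = 0.451) and 0.44 for Monash against UCLA (adjusted p = 0.449). Leaving out the 9 neighbouring libraries leaves 2 Monash rats. The differences were then 0.87, 0.0973 and -0.77 in the same order (edgeR adjusted p = 0.952, 0.902 and 0.772). The first and the last changed sign. All these fitted site differences average over the conditions. With all rats in, the sham means of miR-434-3p were 76.1 CPM (UEF), 164 CPM (Monash) and 123 CPM (UCLA). Its TBI means were 355 CPM (UEF), 246 CPM (Monash) and 187 CPM (UCLA). So UEF was lowest in sham and highest in TBI rats. Site differences within sham or within TBI rats were not tested.

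miR-433-5p had 4.48 to 27.1 CPM at UEF (median 10.5, n = 12), 8.80 to 48.8 CPM at Monash (median 28.2, n = 8) and 3.55 to 50.8 CPM at UCLA (median 10.6, n = 9). Its log2 fold change for UEF against Monash was -1.30 (SE 0.391, edgeR adjusted p = 0.0389), and for the 3 sites together the adjusted p was 0.0548. The 9 libraries in columns 15 to 23 had 24.3 to 50.8 CPM (median 35.1) and the other 20 had 3.55 to 27.1 CPM (median 10.3), so the ranges overlapped only at UEF sham 4 (27.1 CPM). Within Monash the 2 rats outside these columns had 13.5 and 8.80 CPM. Without the 9 libraries the log2 fold change was -0.01 (adjusted p = 0.998). They were noticed partly through this arm, and leaving them out leaves 2 Monash rats, so that fit is not a separate test of it. The adjusted p ranged from 0.00546 to 0.998 over 10 alternatives, 6 of which kept the call. It was also lost when 1 of 12 rats was left out: UEF sham 1, 2 or 3, UEF TBI- 4, UEF TBI+ 1 or 3, Monash sham 1, 2 or 3, or Monash TBI- 1, 2 or 3 (adjusted p 0.0535 to 0.0763, log2 fold change -1.32 to -1.16). The 3p arm of the same hairpin had 86.2 to 157 CPM in the 9 libraries and 58.3 to 225 CPM in the other 20.

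**Figure D4:**
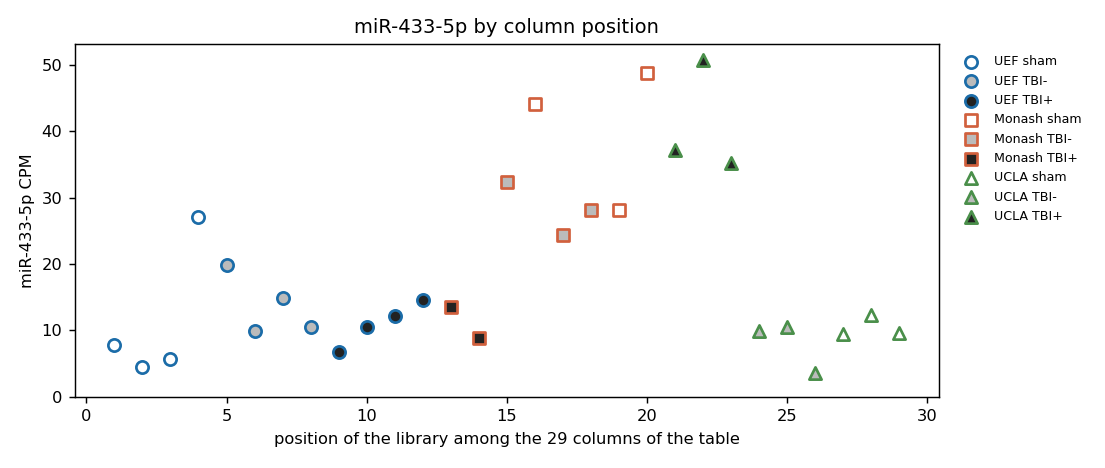
CPM of miR-433-5p against the position of the library among the 29 columns of the table; the edge colour and symbol give the site, and white, grey and black fills give sham, TBI- and TBI+. The libraries in columns 15 to 23 lie at 24.3 to 50.8 CPM and the other 20 at 3.55 to 27.1 CPM.

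The miRNAs that varied most like miR-434-3p over the 29 rats were sought among the 750 others tested, by correlation of log2 CPM with permutation p and Benjamini-Hochberg adjustment over all 750. By Pearson's r 12 passed the threshold, 11 of them with a positive r, and by Spearman's rho 11. The nearest outside the members was miR-382-5p of the same imprinted region (r = 0.852, permutation p = 1e-05, adjusted p = 0.00187; rho = 0.807, permutation p = 1e-05, adjusted p = 0.0025). The value 1e-05 is the smallest that the permutations can give. They shuffled all 29 rats, here and for miR-127-3p below, without a term for site or condition. So 2 miRNAs that both differ with injury or site can pass. Without the 2 rats farthest from the median, UEF sham 3 and UEF TBI+ 2, r was 0.786, and within the sites it was 0.960 (UEF), 0.844 (Monash) and 0.346 (UCLA). It was 0.977 within sham and 0.769 within TBI rats. The next was miR-323-3p (r = 0.830, rho = 0.844, both with permutation p = 1e-05; adjusted p = 0.00187 and 0.0025), with r = 0.815 without those 2 rats and 0.876, 0.782 and 0.911 at the 3 sites in the same order. Within sham rats its r was 0.247 and within TBI rats 0.838. Then came miR-9a-5p, miR-129-5p and miR-341, with r of 0.798, 0.749 and 0.701 (permutation p = 1e-05, 1e-05 and 4e-05, adjusted p = 0.00187, 0.00187 and 0.006). Their rho was 0.740, 0.666 and 0.532 (permutation p = 1e-05, 0.0001 and 0.0036, adjusted p = 0.0025, 0.0187 and 0.146), and without the 2 rats r was 0.775, 0.6251 and 0.570. Within UEF, Monash and UCLA r was 0.885, 0.659 and 0.792 for miR-9a-5p, 0.951, 0.699 and 0.0909 for miR-129-5p, and 0.876, 0.342 and 0.340 for miR-341. Within sham and TBI rats r was 0.8291 and 0.651 for miR-9a-5p, 0.431 and 0.599 for miR-129-5p, and 0.761 and 0.413 for miR-341.

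Among the members miR-127-3p ranked 9 of 750 (r = 0.659, permutation p = 0.00013, adjusted p = 0.00975; rho = 0.632, permutation p = 0.00031, adjusted p = 0.0258). Its r was 0.583 without the 2 rats, 0.700 within UEF, 0.828 within Monash and 0.208 within UCLA, and 0.648 within sham and 0.590 within TBI rats. No other member passed. The miR-434-5p arm from the same hairpin ranked 70 (r = 0.336, permutation p = 0.0747, adjusted p = 0.486; rho = 0.302, permutation p = 0.112, adjusted p = 0.690). The median r of the 8 other members was 0.305 and that of all 750 was 0.00117.

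Set against miR-127-3p instead, 3 of 750 passed by Pearson's r and 1 by Spearman's rho. These were miR-218a-5p (r = 0.716, permutation p = 0.00011, adjusted p = 0.0275; rho = 0.544, permutation p = 0.00272, adjusted p = 0.450), miR-382-5p (r = 0.671, permutation p = 9e-05, adjusted p = 0.0275; rho = 0.694, permutation p = 5e-05, adjusted p = 0.0375) and miR-434-3p, which ranked 3. Without UEF TBI- 2 and UEF TBI+ 2, the farthest from the median, r fell to 0.490 for miR-218a-5p and was 0.688 for miR-382-5p. Within UEF, Monash and UCLA r was 0.809, 0.769 and 0.576 for miR-218a-5p and 0.736, 0.936 and 0.348 for miR-382-5p. The relation of miR-218a-5p rested in part on those rats. With 1 rat left out, miR-218a-5p passed in 11 of 29 fits, miR-382-5p in 19 and miR-434-3p in 16, so these relations were close to the threshold. The next by r, miR-708-5p, miR-129-5p and the joint entry of miR-133a-3p and miR-133b-3p, had r of 0.541, 0.531 and 0.520 and did not pass (permutation p = 0.00639, 0.00409 and 0.00382, adjusted p = 0.411 each). Their rho was 0.285, 0.530 and 0.271 (permutation p = 0.133, 0.00351 and 0.154, adjusted p = 0.996, 0.450 and 0.996). Without TMM factors many more miRNAs passed, 289 for miR-434-3p and 496 for miR-127-3p.

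**Figure D5:**
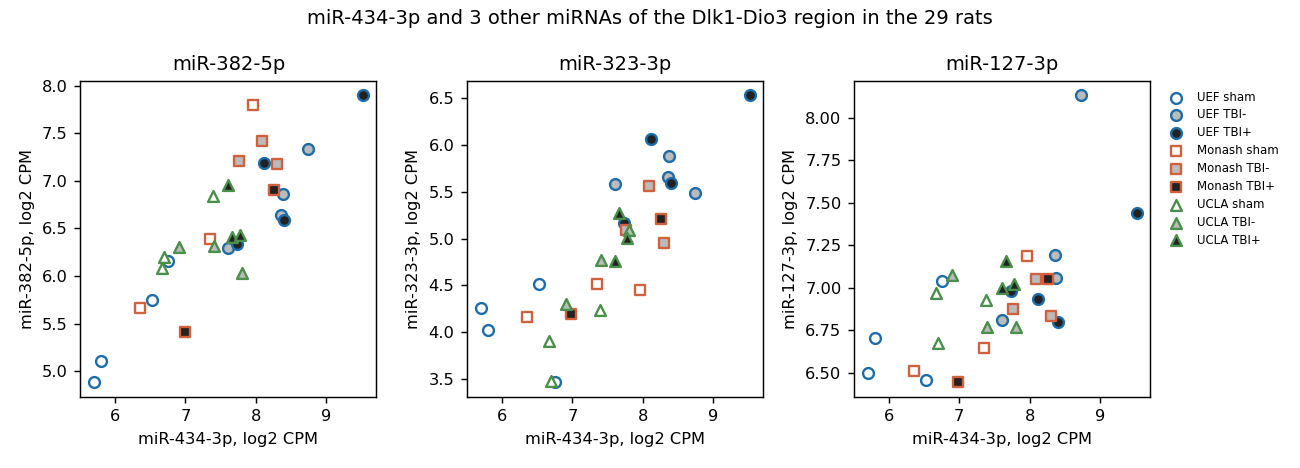
Log2 CPM of miR-382-5p, miR-323-3p and miR-127-3p against that of miR-434-3p in the 29 rats; edge colours and symbols give the site, and white, grey and black fills give sham, TBI- and TBI+. Pearson's r is 0.852, 0.830 and 0.659.

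The rest of the Dlk1-Dio3 region gave few calls. Of the 16 listed miRNAs on the Meg3 side edgeR called 0 for TBI against sham, with a median log2 fold change of 0.09. Of 68 in the miR-379 to miR-410 cluster 1 was called, miR-323-3p (log2 fold change 1.21, SE 0.198, edgeR adjusted p = 0.000633), with 40 higher, 28 lower and a median of 0.05. At UEF 2 of 68 were called, miR-323-3p (1.73) and miR-382-5p (1.44), with 0 of 16 on the Meg3 side. The list as planned holds miR-409a but not miR-409b of the same cluster, which edgeR called at UEF (1.21, adjusted p = 0.00490) and which is not in these counts. miR-382-5p did not pass over all sites (0.56, adjusted p = 0.417), nor did miR-341 (0.44, adjusted p = 0.293). Over all miRNAs 1.20% were called over all sites and 3.85% at UEF, so the shares of these lists were near the background. Of the remaining lists edgeR called 0 of 13 muscle, 0 of 6 white cell and platelet and 0 of 6 pituitary and islet miRNAs for TBI against sham. By fitted log2 fold change all 6 white cell and platelet miRNAs were higher over all sites (median 0.25) and at UCLA (median 0.87), 5 of 6 at UEF and 2 of 6 at Monash. Of the muscle miRNAs 7 were higher and 6 lower over all sites, and of the pituitary and islet miRNAs 3 and 3.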

How the data were processed

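Small RNA from plasma of 29 rats was used. The authors trimmed reads with cutadapt and mapped them with Bowtie to rat build Rnor_6.0 (versions not given), and the deposited table holds raw counts of 754 miRNAs per rat without normalization. Library molecules carried unique molecular identifiers, and reads in which the insert or the identifier was too short were removed. Whether reads with the same identifier were counted once is not stated. Counts were fitted in edgeR 4.0.16 (limma 3.58.1, R 4.3.3) with filterByExpr at a minimum count of 10, TMM factors, site and condition as terms, the quasi-likelihood F test, and p adjusted by Benjamini-Hochberg across every miRNA tested at a threshold of 0.05. The TBI effect at each site and its interaction came from a site by injury model. Log2 CPM used a prior count of 2. Arm ratios and correlations were tested with two-sided permutation tests (100000 resamples). Python 3.11.15 was used with scipy 1.17.1, numpy 2.4.6, matplotlib 3.10.9 and pandas 2.3.3. Methods were tested on simulated data.

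Alternatives were DESeq2 1.42.0, its size factors, upper-quartile, total-count and miR-28-3p scaling, no filter or at least 10 counts in every rat, models without the covariate, with the replicate number as a block or with a red cell ratio, each site or rat left out, a site fitted alone, other pseudocounts, and 9 libraries left out, the last chosen after seeing the data. Named were all members, the 5 other miRNAs most correlated with miR-434-3p and with miR-127-3p, up to 5 called miRNAs of the region, and the listed markers. The members and lists were chosen with earlier results of these data known. The plan counted 8 members and 3 arm ratios, but the rule found 9 members, with miR-433-5p the addition, and 4 ratios. Sequences came from RefSeq (GRCr8).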

Additional observations from a re-analysis of the deposited data

Results flagged for a closer look

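In 72 sets of rats (9 members in 8 groups or sites of 4 to 10 rats) the highest or lowest level was tested against the others by its gap over the range of the set. At a chance rate of about 1 in 20 sets, 3.6 of 72 would be marked, and 8 were marked. The groups and sites share rats, so the marks are not independent and no excess over chance can be read from these counts. All 8 were high values on the CPM scale. For miR-434-3p, UEF TBI+ 2 had 734 CPM among the TBI+ rats, where the next had 338 CPM. The same rat had 37.6 CPM of miR-431, against 23.4 CPM in the next TBI+ rat. For miR-127-3p, UEF TBI- 2 had 279 CPM among the TBI- rats and the next 146 CPM. For miR-434-5p, Monash TBI- 2 had 54.2 CPM, apart both from the TBI- rats (next 28.0 CPM) and from the Monash rats (next 28.1 CPM). Among sham rats, Monash sham 3 had 40.7 CPM of miR-431, where the next had 22.1 CPM. Among the UEF sham rats, UEF sham 2 had 48.0 CPM of miR-127-5p (next 17.1 CPM), and UEF sham 4 had 27.1 CPM of miR-433-5p (next 7.85 CPM). The reason for these values was not tested.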

How the results depend on the processing

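The plasma levels rest on 9 to 2716 counts per member and library, so members near 20 CPM were measured with little precision. Monash and UCLA had 3 sham rats each, and Monash 2 TBI+ rats. miR-28-3p, used for 1 scaling, itself ran from 259 to 1462 CPM (median 462). The highest value was that of UEF sham 3, whose TMM factor of 0.333 raises every CPM of that library. Over all alternatives other than leaving out 1 rat, 485 values kept their direction and side of the threshold, 16 reversed, 14 were no longer past the threshold and 5 newly passed it. A further 68 counts changed by over 1.5 times or to or from 0. The 5 were miR-434-3p for TBI- against sham and for the interaction with DESeq2, and without TMM the likeness of miR-708-5p, miR-129-5p and the joint entry of miR-133a-3p and miR-133b-3p to miR-127-3p. The cause of each change below was not tested. Without the 9 neighbouring libraries Monash had TBI+ rats alone, so its effect and the interaction over 3 sites could not be fitted. An interaction of UEF and UCLA alone was not tested.

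Some scalings moved the median log2 fold change of all miRNAs by over 0.1. Total counts moved it by 0.41 at UEF, -0.50 at UCLA, 0.14 at Monash and 0.10 in TBI+ against sham, and miR-28-3p scaling by 0.34 at UEF, -0.34 at UCLA, 0.12 in TBI+ against sham and 0.14 in TBI+ against TBI-. The balance of calls for TBI at UEF turned with these scalings, from 10 higher and 19 lower to 38 and 8 with total counts and 31 and 10 with miR-28-3p scaling.

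The count of all miRNAs called for TBI against sham was 9. It was 24 with DESeq2, 17 with at least 10 counts in every rat, 14 without the site term, 4 with the replicate number as a block, 4 with the red cell ratio, 0 without UEF, 21 without Monash, 14 without UCLA and 29 without the 9 neighbouring libraries. For TBI- against sham it was 1, and 3 with upper-quartile factors, 0 with miR-28-3p scaling, 10 with DESeq2, 2 with the red cell ratio, 0 without UEF, 0 without UCLA and 0 without the 9 libraries. For TBI+ against sham it was 4, and 0 with total counts, 0 with miR-28-3p scaling, 13 with DESeq2, 0 without UEF, 8 without Monash and 8 without UCLA. For UEF against Monash it was 75, and 46 with upper-quartile factors, 33 with total counts, 18 with miR-28-3p scaling, 31 with the replicate block and 0 without the 9 libraries. For UEF against UCLA it was 70, and 46 both with the replicate block and without the 9 libraries. Without the 9 libraries it was also 0 for Monash against UCLA, 43 for the 3 sites together and 0 for TBI at UCLA.

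For TBI at UEF the count was 29, and 46 with total counts, 51 with DESeq2 and 16 with UEF fitted alone. For TBI at Monash DESeq2 called 5. For TBI at UCLA it was 2, and 4 with DESeq2 size factors, 9 with total counts, 1 with miR-28-3p scaling, 7 with DESeq2 and 0 with UCLA alone. For the interaction it was 8, and 2 with DESeq2 size factors, 5 with upper-quartile factors, 15 with total counts, 17 with DESeq2, 3 with at least 10 counts in every rat and 0 with the replicate block.

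Of the 9 members 1 was called for TBI against sham, and 0 with total counts, miR-28-3p scaling, the replicate block or without UEF. For TBI- against sham DESeq2 called 1. For TBI+ against sham 0 were called with DESeq2 size factors, total counts, miR-28-3p scaling, at least 10 counts in every rat, the replicate block or without UEF. For UEF against Monash 0 were called with upper-quartile factors, total counts, miR-28-3p scaling, at least 10 counts in every rat (which removed miR-433-5p) or without the 9 libraries. For the 3 sites together 1 was called with DESeq2 and 1 with its size factors, and for the interaction 1 with DESeq2. The miR-434-3p log2 fold change for TBI against sham with the replicate block was 1.19. Replicate numbers were paired across groups in this block alone: the correlation of rats with the same number was -0.422 to 0.396 over 28 pairs, 7 of them above 0.1, so the numbers were not used as pairs.

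Reversed signs, among the results followed here, were all in differences that were not called. For miR-434-3p, UEF against Monash was 0.0141 with upper-quartile factors, 0.12 with miR-28-3p scaling, 0.0316 with at least 10 counts in every rat, 0.27 without the condition term, 0.0325 with the red cell ratio and 0.87 without the 9 libraries, and Monash against UCLA was -0.77 without the 9 libraries. For TBI against sham miR-431 was -0.0804 without UEF. miR-433-3p was 0.0413 with total counts, 0.00137 with the replicate block, 0.15 with the red cell ratio and 0.23 without UEF. miR-433-5p was -0.00682 with miR-28-3p scaling, -0.0765 without the site term, -0.37 without UCLA and -0.12 without the 9 libraries. Without TMM 289 miRNAs passed for likeness to miR-434-3p and 496 for miR-127-3p.

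Leaving out 1 rat at a time, the count of all miRNAs called ran from 1 (without UEF sham 4) to 16 (without Monash sham 2) for TBI against sham, 1 to 5 for TBI- against sham, 1 to 7 for TBI+ against sham, 39 to 117 for UEF against Monash and 25 to 59 for Monash against UCLA. It ran from 14 (without UEF sham 3) to 56 (without UEF sham 1) for TBI at UEF, 0 to 4 at Monash, 1 to 6 at UCLA and 0 to 11 for the interaction. Members called ran from 0 to 1 for TBI against sham, TBI- against sham, TBI+ against sham, Monash against UCLA and the interaction, and from 0 to 2 for UEF against Monash and for the 3 sites together. For TBI against sham the log2 fold change ran from -0.10 to 0.12 for miR-433-3p, 0.17 to 0.47 for miR-434-5p, 0.03 to 0.26 for miR-431, 0.02 to 0.41 for miR-433-5p, 0.07 to 0.30 for miR-136-5p and -0.37 to -0.08 for miR-127-5p. That of miR-434-3p ran from 0.27 to 1.02 at Monash and from 0.47 to 0.88 at UCLA. For the same arm TBI+ against TBI- ran from -0.10 (without UEF TBI+ 2) to 0.31, UEF against Monash from -0.18 to 0.17, UEF against UCLA from 0.23 to 0.56 and Monash against UCLA from 0.22 to 0.61. The miR-136 arm ratio difference ran from 0.19 to 0.43, the miR-127 arm ratio difference from 0.37 to 0.60 and that of miR-433 from -0.25 to 0.14. For likeness to miR-127-3p 0 to 3 passed, and for miR-434-3p 8 to 11. Against miR-127-3p the pass of miR-382-5p was lost without UEF sham 1 or 2, UEF TBI+ 2, Monash sham 2 or 3, Monash TBI+ 1 or 2, UCLA sham 3, and UCLA TBI- 1 or 2 (adjusted p up to 0.085). That of miR-434-3p was lost without UEF sham 1, 2 or 3, UEF TBI+ 2, Monash sham 2 or 3, Monash TBI- 3, Monash TBI+ 1 or 2, UCLA sham 1 or 3, and UCLA TBI- 1 or 2 (adjusted p up to 0.105). That of miR-218a-5p was lost without UEF sham 1 or 2, UEF TBI- 2, UEF TBI+ 2, any Monash sham rat, Monash TBI- 2 or 3, Monash TBI+ 1 or 2, UCLA sham 1 or 3, UCLA TBI- 1 or 2, and any UCLA TBI+ rat (adjusted p up to 0.480).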
